A study of Mus musculus with 8 samples.

Results

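After 2 h of curdlan, 14872 peaks of trimethylated histone H3 lysine 4 (H3K4me3) were called in D1 cells, and 360 of them (2.42%) overlapped no peak of the non-treated (NT) list and no peak of the list from curdlan with FK506. These peaks were chosen by the peak calls themselves, a single shared bp with a peak of either other list being enough to leave a peak out, so the tags, p-values and fold enrichments of these 360 peaks are given as a description. Peaks with a summit within 1 kb of the transcription start sites (TSSs) of Ptgs2, Cd70 and Arg1 were among them. Most of the 360 lay away from a TSS, and their median −log10 p-value was 6.76, where the calling threshold is 5. Taken against 1 list at a time, 592 curdlan peaks (3.98%) overlapped no NT peak and 851 (5.72%) no FK506 peak. Of the former 232 did overlap an FK506 peak, of the latter 491 an NT peak, and 13789 peaks were found in all 3 lists.

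D1 is a long-term splenic dendritic cell (DC) line of the C57BL/6 strain. H3K4me3 was profiled in NT cells, in cells given 10 μg/ml curdlan for 2 h and in cells given the same curdlan with FK506, for which the labels give no dose. NFATc2 was mapped after 30 min of 10 μg/ml curdlan in D1 cells that had been transduced with a lentivirus to carry a V5-tagged NFATc2 and sorted for low expression of the linked GFP, so its binding sites are those of an added, tagged protein. With a single ChIP and a single input library for each condition there were no replicates, and no test was run between conditions.

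H3K4me3 is laid down mainly at the promoters of genes that are active or ready for transcription, often over CpG-rich DNA, and weaker signal is also found at active enhancers. Curdlan, a β-glucan of microbial origin, is bound by the C-type lectin receptor dectin-1, whose signal raises cytoplasmic calcium and activates the phosphatase calcineurin. Calcineurin removes phosphates from NFATc2, which then enters the nucleus and binds GGAAA-type sites, often beside AP-1. FK506 blocks calcineurin and so keeps NFAT out of the nucleus.

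The curdlan ChIP library was the deepest, with 21289349 tags against 16662316 for NT and 19468498 for FK506, and its input was the shallowest of the H3K4me3 inputs, with 9309800 tags. Of the 11 DC markers found in the annotation, 10 carried an H3K4me3 peak within 1 kb of a TSS in every list, Flt3 being the exception, whereas none of the markers of B cells, fibroblasts or neutrophils did and 1 of 7 T cell markers did. None of these markers was the nearest gene of a curdlan-only peak.

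DNA around the summits of 5 curdlan-only peaks is printed here to show the kind of sequence that carried them. They are the peak with the smallest p-value and the 4 peaks named by rule whose central 300 bases also held the summit of an NFATc2 peak. All are on the plus strand of mm9, the H3K4me3 summit is base 151, and capitals mark GGAAAA (the core of the NFAT site) and TGANTCA (AP-1), read on both strands. The first, at chr13:105412997-105413296, is intergenic and lies 61.9 kb upstream of the non-coding gene 2610204G07Rik. The Ahr window at chr12:36379116-36379415 is intergenic, 160 kb upstream of the gene, with the NFATc2 summit at base 4. The Stard9 window at chr2:120478510-120478809 is intronic, with the NFATc2 summit at base 28 and GGAAAA cores starting at bases 228 and 292. The Trib1 window at chr15:59615667-59615966 is intergenic, 136 kb downstream of the TSS, and held an NFAT core at base 21 and an AP-1 site at base 50 on either side of the NFATc2 summit at base 28. The Etv6 window at chr6:134197104-134197403 lies in an intron beside an internal TSS, with the NFATc2 summit at base 186. No match in the 2610204G07Rik, Ahr and Etv6 windows says only that GGAAAA and TGANTCA are not there. The shorter GGAAA, which was not marked, is present in the Ahr window and, on the minus strand, in the Etv6 window.
2610204G07Rik: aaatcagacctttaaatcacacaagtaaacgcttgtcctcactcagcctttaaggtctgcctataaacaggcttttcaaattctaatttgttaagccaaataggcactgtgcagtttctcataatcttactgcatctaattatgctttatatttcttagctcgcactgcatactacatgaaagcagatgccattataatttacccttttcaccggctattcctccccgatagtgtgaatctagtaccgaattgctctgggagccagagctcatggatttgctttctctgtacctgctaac
Ahr: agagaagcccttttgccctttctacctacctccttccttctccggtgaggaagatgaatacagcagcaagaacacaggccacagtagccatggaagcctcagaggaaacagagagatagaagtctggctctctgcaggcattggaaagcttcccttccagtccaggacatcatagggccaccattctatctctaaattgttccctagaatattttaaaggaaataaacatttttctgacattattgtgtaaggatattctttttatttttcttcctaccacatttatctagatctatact
Stard9: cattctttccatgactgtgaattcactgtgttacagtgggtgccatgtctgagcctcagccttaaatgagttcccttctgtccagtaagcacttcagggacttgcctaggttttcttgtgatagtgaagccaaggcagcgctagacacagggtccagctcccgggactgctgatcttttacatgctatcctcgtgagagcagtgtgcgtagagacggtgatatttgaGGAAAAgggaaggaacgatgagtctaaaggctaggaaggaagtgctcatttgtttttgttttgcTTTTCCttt
Trib1: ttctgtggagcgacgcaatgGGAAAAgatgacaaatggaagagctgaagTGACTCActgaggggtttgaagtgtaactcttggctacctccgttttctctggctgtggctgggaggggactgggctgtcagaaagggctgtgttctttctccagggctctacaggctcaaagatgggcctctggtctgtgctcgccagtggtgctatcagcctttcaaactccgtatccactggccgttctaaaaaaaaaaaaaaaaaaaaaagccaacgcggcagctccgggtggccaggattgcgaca
Etv6: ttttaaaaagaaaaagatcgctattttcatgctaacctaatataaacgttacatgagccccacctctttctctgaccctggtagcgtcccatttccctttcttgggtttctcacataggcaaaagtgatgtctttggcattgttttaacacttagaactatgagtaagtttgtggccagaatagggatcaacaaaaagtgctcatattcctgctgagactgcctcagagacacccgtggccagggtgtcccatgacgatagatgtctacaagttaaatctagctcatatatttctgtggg

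Most curdlan-only peaks were weak. They held a median of 77.5 ChIP tags (quartiles 57.75 and 111), whereas the curdlan peaks found in all 3 lists had a median of 635. Their median length was 1411.5 bp against 2670 bp, and their median density was 54.6 tags per kb against 235. Together they covered 0.573 Mb and held 0.306% of the tags in all curdlan peaks. The weakest by tags, at the TSS of Zfp629, had 27 tags over 489 bp, and among the strongest was the peak at Wsb2, with 492 over 3948 bp.

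The lists report each peak to a p-value of 1e-05 against the input, a limit that stands at 5 on the −log10 scale. The median −log10 p of the curdlan-only peaks was 6.76, and 119 of the 360 (33.1%) lay between 5 and 6. Only 69 (19.2%) reached a p-value of 1e-10, as 90.6% of all curdlan peaks did. The false discovery rate given with the peak was over 5% for 183 of them (50.8%), against 4.29% of all curdlan peaks, and curdlan-only peaks were 28.7% of the 638 curdlan peaks above that rate. Of the curdlan peaks with a −log10 p between 5 and 6, 29.8% were curdlan-only, and this share was 21.8% between 6 and 8, 10.7% between 8 and 10, 5.52% between 10 and 15 and 0.182% from 15 up. The share fell in each class further from the limit.

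Peaks found only in one of the other lists were also mostly weak. There were 826 NT-only peaks (5.23% of the NT list) and 276 FK506-only peaks (1.86%), with medians of 66 and 65 tags. A p-value of 1e-10 against their own input was reached by 28.0% of NT-only and 13.0% of FK506-only peaks. Scaled to the depth of the NT library, the median curdlan-only peak would hold 60.7 tags, and 980 NT peaks (6.20%) were called with fewer than that. At the depth of the FK506 library it would hold 70.9 tags, and 815 FK506 peaks (5.48%) had fewer. Peaks with so few tags were called in both libraries, although a call also depends on the local input, and where no peak was called the lists give no value. The part of ChIP and input depth in the missing calls was not tested.

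**Figure D1:**
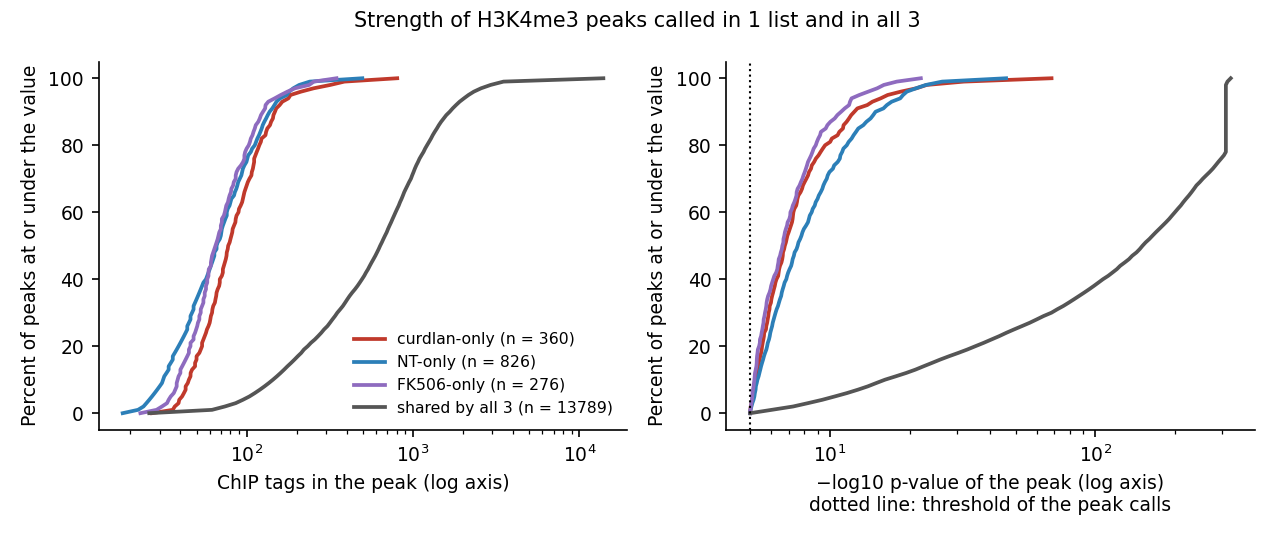
Percent of peaks at or under each number of ChIP tags (left, log axis) and each −log10 p-value (right, log axis) for the 360 curdlan-only, 826 NT-only, 276 FK506-only and 13789 curdlan peaks shared by all 3 lists. The curves of the peaks found in 1 list lie close together near the calling threshold (dotted line), with a median of 77.5 tags for curdlan-only peaks, and the shared peaks lie far to the right with a median of 635.

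At the edge of the rule, the curdlan-only peak closest to another list was at Ttll11, 48 bp from an FK506 peak, followed by those at Zfp592 (92 bp) and Grlf1 (96 bp). Just outside it, 36 bp of a peak at A430005L14Rik was covered by another list, as was 183 bp of one at Bahcc1 and 222 bp of one at Inhba. In all, 24 curdlan-only peaks had a peak of another list within 1 kb and 78 within 5 kb, while 238 had none within 10 kb and 49 none within 100 kb.

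The peaks lay mostly outside promoters. The summit of 62 of the 360 (17.2%, 95% Wilson interval 13.7 to 21.5) was within 1 kb of an annotated TSS, against 71.6% of all curdlan peaks and 75.5% of the shared ones. Introns held 124 (34.4%), exons 10 (2.78%) and intergenic DNA 164 (45.6%), against 12.1%, 1.58% and 14.7% of all curdlan peaks. The largest intergenic class, 10 to 100 kb from a gene, held 26.4% of the 360 and 7.24% of all curdlan peaks. The median distance to a TSS was 13.4 kb, against 0.408 kb for shared peaks. NT-only peaks had 15.6% (13.3 to 18.3) of summits within 1 kb of a TSS and FK506-only peaks 11.6% (8.33 to 15.9), whereas curdlan peaks retained with FK506 but absent from NT had 29.7% (24.2 to 35.9). Curdlan peaks found in NT but not with FK506 had 23.2% (19.7 to 27.2). Among peaks with a −log10 p between 5 and 6, the share was 16.8% for curdlan-only, 14.1% for NT-only and 30.2% for shared peaks. They were found on 20 chromosomes and made up from 1.22% of the curdlan peaks of chromosome 8 to 3.46% of those of chromosome 6.

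**Figure D2:**
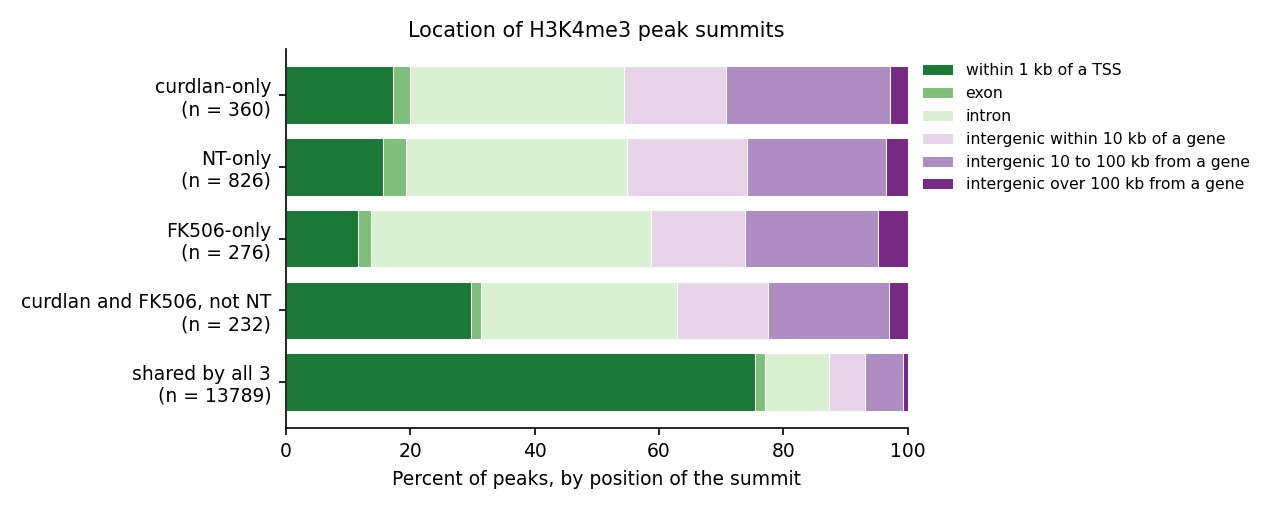
Percent of H3K4me3 peaks whose summit lay within 1 kb of a TSS, in an exon, in an intron or in 3 classes of intergenic DNA, for peaks found in 1 list, in curdlan and FK506 but not NT, and in all 3 lists. Curdlan-only peaks had 17.2% of summits near a TSS and shared peaks 75.5%.

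Of the 62 peaks near a TSS, 55 had a protein-coding gene as the nearest one. For 34 of these genes neither the NT nor the FK506 list held a peak within 1 kb of any TSS of the gene, so the curdlan list alone marked the promoter. The other 21 genes had an NT or FK506 peak at a TSS, and 19 of them had both. There the curdlan-only peak stood at another position of the gene or directly beside a peak of another list. At Ttll11 and Grlf1 the gap to such a peak was 48 and 96 bp.

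Ptgs2 and Arg1 were among the promoters marked in the curdlan list alone. Ptgs2, which encodes the inducible cyclooxygenase of prostaglandin synthesis, had a narrow peak with its summit 64 bp downstream of the TSS. This peak held 79 tags over 1364 bp, with a 28.12-fold enrichment and a p-value of 1.8e-14. No NT or FK506 peak lay within 63 kb of it, and the nearest NFATc2 summit was 139 kb away. The 1080 bp peak upstream of Arg1, the arginase of alternatively activated macrophages, was weaker, with 49 tags and a p-value of 6.3e-08.

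Members of the TNF family were represented by neighbours on chromosome 17. Cd70, the ligand of the costimulatory receptor CD27, had a peak of 139 tags whose summit was 877 bp inside the gene (p-value 7.3e-07). The peak at Tnfsf14, which encodes the lymphotoxin-related ligand LIGHT, began 37.8 kb further along, held 141 tags and lay over an exon 4.42 kb from the TSS. Its p-value was 6.8e-06 and its fold enrichment, 8.31, was the lowest of the 360. The false discovery rate given with the peak was 8.11% for Cd70 and 16.46% for Tnfsf14. An NFATc2 summit was inside the Tnfsf14 peak and none inside the Cd70 peak. For Tnfsf14 an FK506 peak lay 2.22 kb away and the nearest NT peak 55.2 kb away.

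A further 8 named promoters were marked in the curdlan list alone. Pdzk1ip1, which encodes a small membrane protein, had 183 tags (p-value 7.3e-27), the smallest p-value of any peak near a TSS. Zfp57, a zinc-finger protein that protects imprinted DNA methylation, had 97 tags 37 bp from the TSS. Hoxa10, a homeobox factor, had 88 tags, Dact3, an inhibitor of Wnt signalling, 121, and Col27a1, a fibrillar collagen, 108. The uncharacterised gene D930020B18Rik had 109 tags with an NFATc2 summit inside, while Rhbdl3, a rhomboid-like protein, had 111 and Tmem44 had 62.

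Already marked genes were led by Wsb2, which encodes a SOCS-box protein. Its curdlan-only peak held 492 tags (p-value 1.5e-24) at an internal TSS, while the peak beside its upstream TSS was present in all 3 lists, with 1223 tags in NT, 1739 in curdlan and 1414 with FK506. An NFATc2 summit with 252 tags lay 500 bp from the curdlan-only summit. Ehd1, a regulator of endocytic recycling, had 349 tags over 4886 bp at a second TSS, also with NFATc2 inside. Rgs12, a regulator of G protein signalling, had 158 tags and Grlf1 90. The peak at an internal TSS of the ETS factor Etv6 held 131 tags, with an FK506 peak 2.14 kb away and the nearest NT peak 93.7 kb away. Plekha7 (69 tags) lay 179 bp from an NT peak and 23.1 kb from an FK506 peak, and Usp31 (66 tags) lay within 1 kb of peaks of both lists.

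Away from promoters, the peak with the smallest p-value of all, 4.7e-69, was the intergenic region shown above at 2610204G07Rik, with 403 tags, a 45.67-fold enrichment and an NFATc2 summit of 288 tags inside. Next came the region upstream of Ahr, the aryl hydrocarbon receptor, with 386 tags (p-value 2.6e-50) and an NFATc2 summit of 95 tags. The region at chr9:18438115-18441821, whose nearest genes were a U6 RNA gene and the olfactory receptor Olfr24, held 389 tags and an NFATc2 summit of 289 tags. The nearest peak of another list was 9.80 kb away at 2610204G07Rik, 54.1 kb away at Ahr and 159 kb away on chromosome 9.

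Receptor genes were the nearest genes of several further distal peaks. The region 29.8 kb downstream of the TSS of Cd200r3, a receptor of the CD200 receptor family, held 346 tags and was 1 of only 2 curdlan-only peaks with 2 NFATc2 summits inside, the other being an intronic peak of Mst1r, the receptor of macrophage-stimulating protein, with 181 tags. A region 165 kb from Cxcr7, an atypical chemokine receptor, held 144 tags with NFATc2 inside. Tnfrsf13c, which encodes the BAFF receptor, had 150 tags at 12.6 kb with a fold enrichment of 42.58 and no NFATc2 summit inside.

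The highest fold enrichment, 50.57, was in an intron of Lhx9, a LIM-homeobox factor, with 132 tags. Besides 2610204G07Rik and Tnfrsf13c, folds of 35.33 to 44.57 were also seen at Stard9, Ppm1h, 6720401G13Rik, Gm14300, Gm8556, Cxcr7 and Usp31. Of these, Cxcr7 had 144 tags and the others 115 or fewer. Dupd1 was the nearest gene of a 301-tag peak (p-value 1.3e-34) that lay in an intron of Myst4, 2.45 kb from an FK506 peak and 89.4 kb from an NT peak. Slco4a1, an organic anion transporter, was 12.6 kb from a peak of 240 tags with NFATc2 inside, and the peaks nearest to Olfm2 and Ctnna1 held 144 and 147 tags without it. At Ildr1 the peak was wide (5006 bp, 322 tags, NFATc2 inside) but had a p-value of 6.6e-06, so a high tag count did not always go with a small p-value.

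The 360 peaks had 355 distinct nearest genes, of which 5 had 2 peaks each, and 268 peaks (74.4%) were nearest to a protein-coding gene. That share was 88.3% for all curdlan peaks, 75.5% for NT-only peaks and 75.4% for FK506-only peaks. Curdlan-only peaks lay upstream of the nearest TSS in 169 cases and downstream in 191. Of the 298 peaks away from a TSS, 153 (51.3%) had a nearest gene that was marked at a TSS in NT cells. Neither this share nor the split into upstream and downstream is given here for all curdlan peaks, so both are descriptions only. Only 3 pairs of curdlan-only peaks were within 5 kb of each other, at Dact3, Wisp1 and Pdgfb, where the gaps were 0.079, 0.167 and 1.33 kb. At Pdgfb, which encodes a subunit of platelet-derived growth factor, the peaks held 110 and 296 tags, both with an NFATc2 summit inside.

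The nearest genes included few members of the cytokine and signalling lists, and few curdlan peaks of any class lay nearest to those genes. Of 20 cytokine genes listed by the study, Il1a, Tgfb3 and Tnfsf14 were the nearest protein-coding gene of 1 peak each, and of its 20 chemokine genes Ccl2 was. These lists were drawn up by the study from the same NFATc2 library, so they are not independent of the NFATc2 values. With genes of any type counted, 1 of the 15 curdlan peaks nearest to a listed cytokine gene was curdlan-only (6.67%, against 2.42% of all curdlan peaks) and 0 of the 9 nearest to a listed chemokine gene. None of 32 further interleukin, interferon and related genes, which leave out those on the study's lists such as Il1a, and none of 14 NF-κB genes or the annotated 23 of 24 dectin-1 signalling genes was nearest to a curdlan-only peak, although 14, 26 and 30 curdlan peaks of any class had these genes as the nearest. Since 2.42% of all curdlan peaks were curdlan-only, a list with so few peaks says little when it is empty. A TSS was marked for 7 of the 20 cytokine genes in NT cells, for 11 after curdlan, and for 11 where FK506 had been added. In the same order it was 8, 9 and 9 of the chemokine genes and 9, 10 and 10 of the 32 further genes. For the NF-κB genes it was 14 and for the dectin-1 signalling genes 21 in every list. These are calls from 1 library each, give no peak height and have no share over all genes beside them.

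Il1a, the gene of the cytokine IL-1α, lay 4.52 kb from its curdlan-only peak of 211 tags (p-value 1.1e-15), and the nearest gene of any type was a U12 RNA gene. The promoter of Il1a itself was covered by another curdlan peak with 504 tags, which was matched by an FK506 peak of 409 tags and by no NT peak. The Il1a promoter was therefore not curdlan-only, whereas the flanking peak was, and 4 NFATc2 summits lay within 30 kb of it, the nearest 2.66 kb away with 46 tags and the strongest with 373. Ccl2, a monocyte-attracting chemokine, was 28.5 kb from a peak of 111 tags. The peak for Tgfb3 was 86.7 kb from that gene, in an intron of Ttll5, with 81 tags and NFATc2 inside. The false discovery rate given with the peak was 0.2% for Il1a, 7.6% for Ccl2 and 10.51% for Tgfb3.

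Of 30 immediate early and NFAT-responsive factors, Klf6, Ier5 and Nfatc2 were the nearest protein-coding gene of 1 peak each. The Klf6 region lay 68.3 kb upstream of that zinc-finger factor and held 300 tags over 4907 bp with an NFATc2 summit inside. The Ier5 region (77 tags, p-value 6.3e-06, NFATc2 inside) was 40.3 kb from the gene, and the peak in an intron of Nfatc2 itself (82 tags, p-value 6.5e-06) had no NFATc2 summit inside. The false discovery rate given with the peak was 0.21% for Klf6, 16.04% for Ier5 and 16.15% for Nfatc2. With genes of any type counted, 2 of the 48 curdlan peaks nearest to these factors were curdlan-only (4.17%). For 29 DC maturation genes it was 2 of 30 peaks (6.67%), those at Ptgs2 and Arg1. For 24 genes of the TNF, receptor and adaptor families it was 1 of 19 (5.26%), at Cd70, and this list does not hold Tnfsf14 or Tnfrsf13c. For 20 neuronal and developmental genes it was 1 of 5 (20%), an intronic peak of Lhx2 with 60 tags and a false discovery rate of 15.96%. With 1 or 2 peaks each, these shares are descriptions beside the 2.42% of all curdlan peaks.

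**Figure D3:**
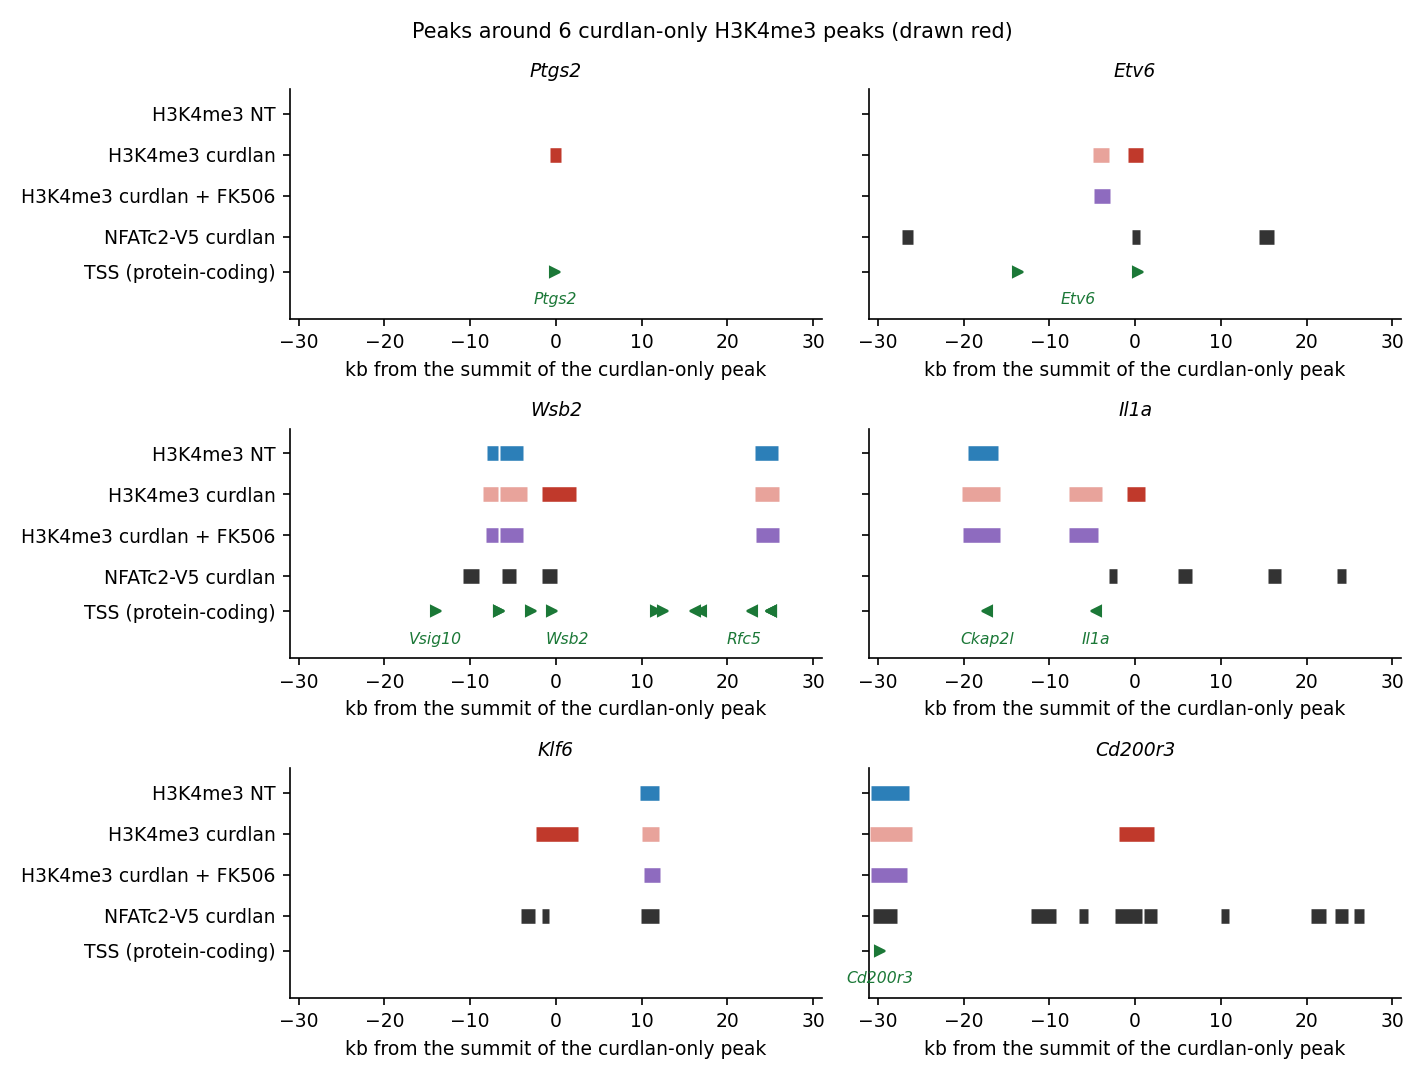
Called peaks within 30 kb of 6 curdlan-only H3K4me3 peaks (red), drawn to scale in kb from their summits, with NT, curdlan and FK506 H3K4me3 peaks, NFATc2-V5 peaks and protein-coding TSSs (arrowheads point in the direction of transcription). Ptgs2 has no other peak in view, Wsb2 and Il1a have further marked promoters close by, and NFATc2 summits lie inside the peaks of Etv6, Wsb2, Klf6 and Cd200r3.

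The nearest H3K4me3 peak shared by all 3 lists was a median of 24.8 kb away (quartiles 8.91 and 67.7 kb). It was within 1 kb for 17 curdlan-only peaks (4.72%), within 5 kb for 62 (17.2%) and within 20 kb for 161 (44.7%). Over all curdlan peaks the shares with another such peak were 15.3%, 26.8% and 53.2%, and the median distance was 17.8 kb. NT-only peaks lay a median of 17.6 kb and FK506-only peaks 24.9 kb from such a peak. Examples close to a shared peak were Ttll11 (0.105 kb), Grlf1 (0.146 kb), Usp31 (0.344 kb), Adamtsl4 (1.01 kb) and Wsb2 (1.83 kb). At the 3 peaks of Dupd1, Etv6 and Tnfsf14 an FK506 peak was within 5 kb while the nearest NT peak was more than 50 kb away.

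NFATc2 binding was measured in a library that the rule did not use. An NFATc2 summit was inside 66 of the 360 peaks (18.3%, 14.7 to 22.7), against 13.8% of all curdlan peaks. The share was 19.4% (16.8 to 22.2) for NT-only peaks and 16.3% (12.4 to 21.1) for FK506-only peaks. It was 21.6% (16.7 to 27.3) for curdlan peaks kept with FK506 but absent from NT. For curdlan peaks found in NT but not with FK506 it was 15.9% (12.9 to 19.4). Within 20 kb there was an NFATc2 summit for 152 curdlan-only peaks (42.2%, 37.2 to 47.4), against 36.8% of all curdlan peaks and 43.8% (40.5 to 47.2) of NT-only peaks. At either distance the intervals of curdlan-only and NT-only peaks overlapped.

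Away from TSSs 58 of 298 curdlan-only peaks (19.5%) had NFATc2 inside and near TSSs 8 of 62 (12.9%), and shared peaks had 18.0% and 12.1% in the same classes. The 66 peaks held 68 NFATc2 summits, with a median of 104 tags. The median was 91 for NFATc2 summits inside NT-only peaks, 80 inside any curdlan peak and 63 over all 9438 NFATc2 peaks. In these 66 the NFATc2 summit was a median of 349 bp from the H3K4me3 summit, and 45 were within 500 bp.

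The share with NFATc2 inside was higher among the strongest curdlan-only peaks. It was 9 of the 15 with the smallest p-values (60%, 35.7 to 80.2), 21 of the 69 with a p-value of 1e-10 or less (30.4%, 20.8 to 42.1) and 45 of the other 291 (15.5%, 11.8 to 20.1). Peaks called in curdlan and FK506 but not in NT had 29 of 96 (30.2%, 21.9 to 40.0) at a p-value of 1e-10 or less. Those called in curdlan and NT but not FK506 had 29 of 152 (19.1%, 13.6 to 26.1). NT-only peaks had 52 of 231 (22.5%, 17.6 to 28.3) and FK506-only peaks 7 of 36 (19.4%, 9.75 to 35.0). Length moved with this share, since 27 of 57 peaks longer than 2 kb (47.4%) and 39 of the 303 shorter ones (12.9%) had NFATc2 inside. In a window that does not grow with the peak, 1 kb from the H3K4me3 summit, the counts were again 21 of 69 and 45 of 291. Of the 15 with the smallest p-values, 8 had an NFATc2 summit in that window. Length moved with the share there too, with 24 of 57 longer peaks (42.1%) and 42 of 303 shorter ones (13.9%). Within 500 bp of the H3K4me3 summit the counts were 16 of 69 and 31 of 291. The part of length in the difference between strong and weak peaks was not tested further.

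**Figure D4:**
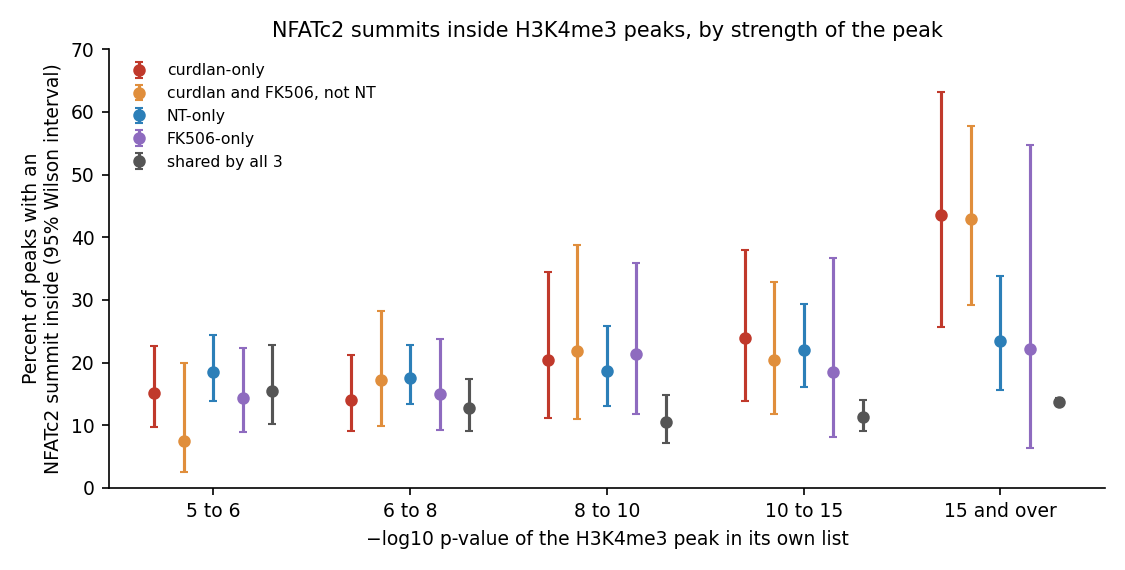
Percent of H3K4me3 peaks with an NFATc2 summit inside, with 95% Wilson intervals (counting error only), by the −log10 p-value of the peak in its own list. Curdlan-only peaks went from 15.1% of 119 between 5 and 6 to 43.5% of 23 from 15 up, where curdlan and FK506 peaks absent from NT had 42.9% of 42, NT-only peaks 23.5% of 81 and shared peaks 13.7%.

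The strongest peaks with NFATc2 inside were those of 2610204G07Rik, Ahr, the chromosome 9 region, Wsb2, Cd200r3, Cxcr7, D930020B18Rik, Slco4a1 and Stard9. They were followed by Mst1r, Klf6, Adamtsl4, Trib1, Ghitm and Ehd1, with 106 to 349 tags. Of these 15, Wsb2, D930020B18Rik and Ehd1 were near a TSS and the others were intronic or intergenic. Irg1, the enzyme that makes itaconate in activated macrophages, was noticed after its values were seen. Its peak of 202 tags (p-value 4.5e-09) spanned the TSS, and the summit of the peak lay in an intron 1.47 kb from the TSS. An NFATc2 summit of 87 tags lay 131 bp from that summit, and no peak of another list lay within 11 kb.

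**Figure D5:**
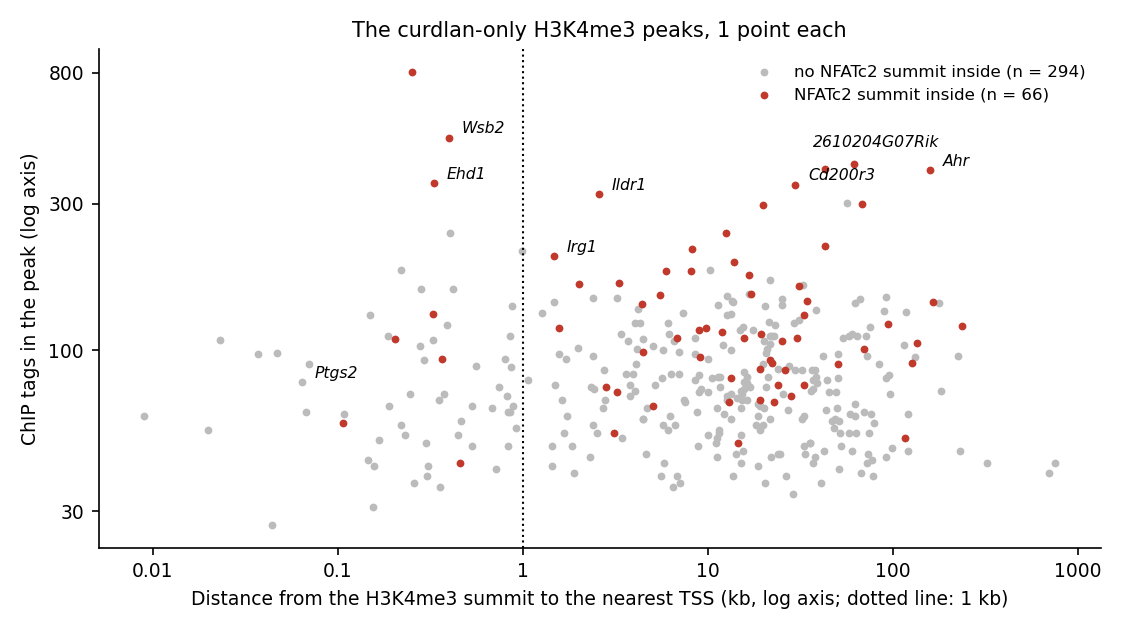
ChIP tags in each of the 360 curdlan-only peaks (log axis) against the distance of its summit to the nearest TSS (kb, log axis), with the 66 peaks that held an NFATc2 summit in red. Points right of the dotted line are the 298 peaks more than 1 kb from a TSS. The 8 peaks with more tags than the one at Dupd1 (301) all have NFATc2 inside, a cut chosen after the values were seen. Length is not shown, and 47.4% of the peaks over 2 kb and 12.9% of the shorter ones had NFATc2 inside.

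In the 300 bases around the H3K4me3 summit, GGAAAA was present on either strand in 120 curdlan-only peaks (33.3%, 28.7 to 38.4) against 25.3% of all curdlan peaks, 25.1% (22.2 to 28.1) of NT-only peaks and 24.3% (19.6 to 29.7) of FK506-only peaks. TGANTCA was present in 38 (10.6%, 7.79 to 14.2) against 5.11% of all curdlan peaks and 9.69% (7.85 to 11.9) of NT-only peaks. GAGGAAGT, the site of the myeloid factor PU.1, was present in 12 (3.33%, 1.92 to 5.74) against 2.10%. Curdlan peaks found in NT but not with FK506 had GGAAAA in 25.5% (21.8 to 29.5) and TGANTCA in 8.55% (6.39 to 11.4). A GGAAAA core was present in 24 of the 66 peaks with an NFATc2 summit inside (36.4%) and in 96 of the 294 without one (32.7%). Around the 68 NFATc2 summits themselves, GGAAAA was found in 52.9% (41.2 to 64.3) and TGANTCA in 32.4% (22.4 to 44.2), against 52.0% and 25.7% of all NFATc2 peaks.

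Base composition differed from that of shared peaks. The median GC content of the 300 bases was 46.7% for curdlan-only peaks and 55.3% for shared peaks, and the median ratio of observed to expected CpG was 0.335 and 0.574. A ratio of 0.6 or more, as in CpG islands, was found in 47 curdlan-only peaks (13.1%, 9.96 to 16.9) and 45.6% of shared peaks. NT-only and FK506-only peaks had 9.81% and 7.61%. Near TSSs the curdlan-only peaks had a median GC content of 54.3% and a CpG ratio of 0.520, and away from them 45.7% and 0.304. GC content and CpG ratio moved with distance from a TSS, and their part in the motif counts was not tested.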

How the data were processed

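H3K4me3 and NFATc2-V5 ChIP-seq peak lists of D1 cells were used, 4 lists from 1 ChIP and 1 input library each, grouped by the sample labels. Reads had been aligned by the authors to mm9 with bowtie, and peaks of each ChIP library called against its own input with MACS, which the headers give as 1.4.2, at a p-value of 1e-05, a band width of 1000 bp for H3K4me3 and 300 bp for NFATc2, and at most 1 tag per position. The deposited start, end, length and summit are positions in bp. The count of tags per peak is as deposited and is not scaled to depth. The authors' lists give the p-value as −log10 p multiplied by 10, here divided by 10. Fold enrichment, a ratio to the local background of the input, is as deposited, and the deposited FDR, in percent, was estimated by exchanging ChIP and input. ChIP and input depths differ between libraries, so p-value classes set side by side for different lists are each relative to the list's own input and do not mark equal signal.

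Overlap, distances, location and motifs were computed with Python 3.11.15, numpy 2.4.6, pandas 2.3.3 and scipy 1.17.1, and figures drawn with matplotlib 3.10.9. Genes came from GENCODE M1 (Ensembl 65, 37310 genes, 22380 protein-coding) on NCBI build 37, and sequences from that genome. Chromosome lengths held every peak. Spi1 and Syk were not found under those names. The distance and overlap functions were tested on simulated data. No sample column was left unused (0).

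The peaks, gene lists and rules were chosen with earlier results of these data known. Named genes are the nearest genes, by TSS, of the 15 peaks with the smallest p-value, the 10 with the highest fold, the 10 with most tags, the first 15 by p-value with NFATc2 inside, the first 15 within 1 kb of a protein-coding TSS, and every peak nearest to a gene of 10 lists, 48 peaks in all, plus those at the edge of the rule. Of these, 1 is not reported here. Maps and figure labels were chosen after values were seen, as were Irg1 and the pairs of neighbouring peaks. Shares carry 95% Wilson intervals, which cover counting error only, and neighbouring peaks are not independent. Alternatives changed the p-value and FDR limits, the overlap, the windows and the position used.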

Additional observations from a re-analysis of the deposited data

How the results depend on the processing

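The number of curdlan-only peaks depended most on the threshold. It was 382 when a peak with under 50% of its bases covered counted as curdlan-only, 336 and 282 when peaks of the other lists within 1 and 5 kb counted as overlapping, and 244 with a p-value of 1e-10 or less in all 3 lists. It fell to 69 and 13 with p-values of 1e-10 and 1e-20 in the curdlan list alone and to 177 with an FDR of 5% or less, and rose to 940 when only the NT and FK506 lists were limited to 1e-10, since fewer peaks were then left to overlap. The share near a TSS was 21.7% and 31.9% with windows of 2 and 5 kb and 21.7% at a curdlan p-value of 1e-10 or less. The share with NFATc2 within 20 kb was 34.4% and 57.8% with windows of 10 and 50 kb, 30.0% with NFATc2 peaks of p-value 1e-10 or less and 58.0% for curdlan peaks of 1e-10 or less. The share with NFATc2 inside was 13.1% and 30.4% under the same 2 limits. The cause of the higher NFATc2 shares at the stricter curdlan limit was not tested. The other alternatives, including a median gap to a shared peak of 22.7 to 27.5 kb, stayed within the counting interval, as did NFATc2 within 1 kb of the summit (18.3%), an alternative chosen after seeing the data.

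With 1 library per condition, neither leaving out a replicate nor a test between conditions was possible. No paired analysis was possible because each condition had 1 ChIP library. Where a list has no peak it gives no tags, so H3K4me3 under the threshold was not measured.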
